A study of Homo sapiens with 12 samples.

Results

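The genes described here encode the proteins of the centromere, the kinetochore and the spindle checkpoint. Members were taken by symbol. They were every gene with a CENP symbol and a fixed set of named kinetochore and checkpoint genes that had a probe set annotated with that 1 symbol, and the brightest probe set stood for the gene. The rule found 39 genes with 73 probe sets, and all 39 passed the filter on dim probe sets, so that they were 39 of the 12132 genes tested. Each of the 39 was also above the floor set for low signals on all 12 arrays. CENPP and CENPS were represented only by probe sets annotated with several symbols, CENPJ had no probe set of its own, and these genes were not analysed here.

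Total RNA came from 4 established lines of human synovial sarcoma (Aska-SS, Yamato-SS, SYO-1 and Fuji) after 24 h with vehicle (0 µM) or with ZSTK474 at 0.3 or 3 µM. ZSTK474 is an inhibitor of all class I phosphatidylinositol 3-kinases (PI3K), the lipid kinases that relay growth factor signals to Akt and mTOR. Per the study's cell line list, Aska-SS and Yamato-SS carry the SS18-SSX1 fusion and SYO-1 and Fuji carry SS18-SSX2, the fusion oncogene that defines this sarcoma. Each line and dose had 1 array, the lines served as the 4 replicates of a dose, and no culture was repeated. The spread in each comparison of doses is how far the lines differ in their change by dose, after each line's own level is removed. It is pooled over all 12 arrays, so the arrays of the dose left out of a comparison also enter it. In the test of equal slopes between lines the spread is the departure from a straight line over the dose steps. Of 8 synovial sarcoma marker genes, 7 had a probe set and 6 passed the filter, including TLE1, with KRT19 too dim, whereas 0 of the 6 leukocyte markers and 1 of the 5 endothelial markers found, PECAM1, passed it. The summed signal ran from 21049 to 38004 in the 4 untreated arrays and from 24428 to 51866 at 3 µM for the synovial sarcoma list, from 155 to 365 and from 135 to 254 for the leukocyte list, and from 239 to 489.8 and from 212 to 442 for the endothelial list.

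The centromere is the chromosomal site where the histone H3 variant CENP-A replaces ordinary H3. A group of inner proteins, the constitutive centromere-associated network (CCAN), sits on this chromatin and carries the outer KMN network (KNL1, the MIS12 complex and the NDC80 complex), which grips spindle microtubules in mitosis. The spindle checkpoint proteins gather on kinetochores that are not attached and delay anaphase. Many of these genes are transcribed mostly in late S, G2 and M phase, so that their RNA marks dividing cells. In RNA from a whole culture, fewer cells in these phases and less RNA per cell cannot be told apart.

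Promoter stretches of 6 of the genes are given first. RefSeq promoters (GRCh38.p14, 250 bases before to 50 after the annotated start) were matched for 32 of the 39 genes. Each line below holds the 100 bases before the start, read 5′ to 3′ on the strand of the gene. Capitals mark the cell cycle genes homology region (CHR, searched as TTTGAA or TTCGAA), an element bound by the MuvB complexes in promoters of mitotic genes, and the box bound by the factor NF-Y (searched as CCAAT), on either strand, so that TTCAAA and ATTGG are the same motifs read from the other strand. ZWINT had the smallest adjusted p of the members at 3 µM, BUB1B and CENPA held a CHR close to the start, CENPX held only NF-Y boxes, CENPC was the gene that rose, and PMF1 changed least.
ZWINT (chr10:56361260-56361359, minus strand): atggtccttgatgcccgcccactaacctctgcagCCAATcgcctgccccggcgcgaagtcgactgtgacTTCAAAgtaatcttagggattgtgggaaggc
BUB1B (chr15:40160969-40161068, plus strand): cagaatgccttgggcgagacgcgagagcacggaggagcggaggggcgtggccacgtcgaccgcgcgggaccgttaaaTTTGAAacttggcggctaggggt
CENPA (chr2:26785956-26786055, plus strand): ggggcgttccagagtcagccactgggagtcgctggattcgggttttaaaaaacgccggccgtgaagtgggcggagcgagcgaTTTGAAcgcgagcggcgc
CENPX (chr17:82022879-82022978, minus strand): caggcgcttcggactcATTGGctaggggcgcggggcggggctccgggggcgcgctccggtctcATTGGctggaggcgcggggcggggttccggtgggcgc
CENPC (chr4:67545504-67545603, minus strand): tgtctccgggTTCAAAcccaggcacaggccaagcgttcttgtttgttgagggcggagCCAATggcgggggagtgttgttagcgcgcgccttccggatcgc
PMF1 (chr1:156212907-156213006, plus strand): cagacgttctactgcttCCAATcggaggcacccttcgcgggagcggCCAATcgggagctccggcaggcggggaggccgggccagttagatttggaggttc

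Over the whole window of 300 bases, a CHR was found in 16 of the 32 promoters (50%) and in 16.8% of the 27305 promoters of the table. The NF-Y box was found in 18 of the 32 (56.2%) and in 35.6% of all, and both motifs together in 10 (31.2%) and in 6.63%. A longer E2F motif (TTTGGCGC or TTTCCCGC) was found in 2 of the 32 (6.25%) and in 2.27% of all. Among the 15843 promoters of protein-coding genes, the share was 13.8% for the CHR and 36% for the NF-Y box. It was 5.71% for both together and 2.97% for the E2F motif. Of the 25 members with a matched promoter that fell at 3 µM, 13 (52%) held a CHR, against 3 of the 7 (42.9%) that did not fall. The other motifs were found in a smaller share of those that fell, with 52% against 71.4% for the NF-Y box, 28% against 42.9% for both motifs together and 4% against 14.3% for the E2F motif. A match describes the letters in this window and is not evidence that a factor binds there.

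At 3 µM ZSTK474 most of the centromere and kinetochore genes were lower than in untreated cells. Of the 39, 28 fell (71.8%) and 1 rose, and 10 missed the threshold (limma moderated t statistics, Benjamini-Hochberg adjusted p under 0.05 over all genes tested). Of all 12132 genes, 21.1% fell and 22.6% rose in the same fit. The change was below 0 in every line for 32 of the 39 members, against 23.9% of all genes. The median log2 change of the members was -0.74, with a range from -1.85 to 0.31, and the median of all genes was 0.01. By line, the median log2 change of the members was -1.33 in Fuji, -0.60 in Yamato-SS, -0.59 in SYO-1 and -0.54 in Aska-SS.

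**Figure D1:**
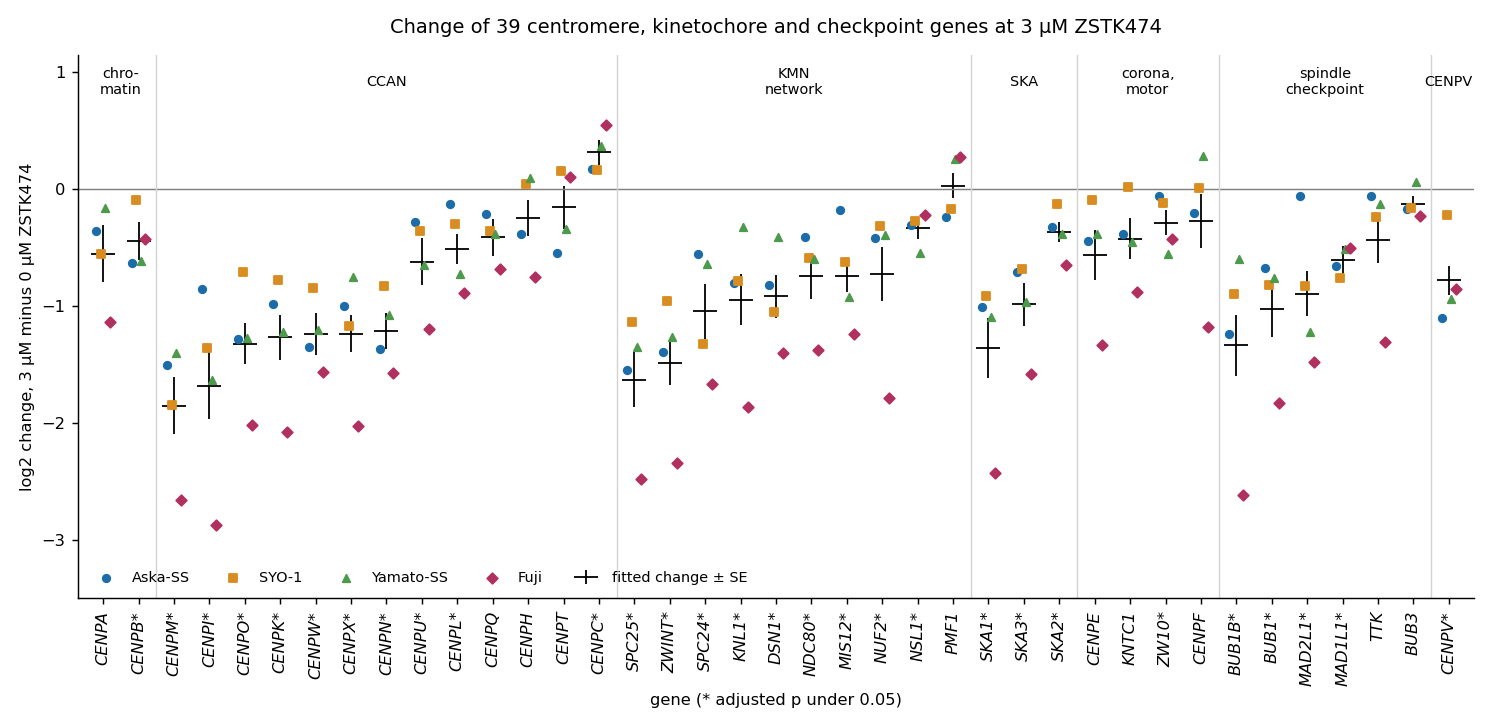
Log2 change between 3 and 0 µM ZSTK474 (y axis) for each of the 39 genes (x axis), ordered by role and by size, with 1 coloured point per cell line (4 lines) and a black bar for the fitted change ± SE. Most points lie below 0, Fuji is the lowest point for most genes, and CENPC is the gene with all 4 points above 0.

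Among the 13 CCAN genes, 9 fell, 1 rose and 3 missed the threshold, where 21.1% of all genes fell and 22.6% rose. The median log2 change of the 13 was -1.21. CENPM, a subunit of the CENP-H/I/K/M complex, had a signal of 379, 1135, 2318 and 1218 in untreated Aska-SS, Yamato-SS, SYO-1 and Fuji, of 195, 975, 1474 and 272 at 0.3 µM, and of 133.2, 430.0, 645 and 192 at 3 µM. Every line was lower at each higher dose, but the dose groups overlapped, because untreated levels differed 6.12-fold between SYO-1 and Aska-SS. The fitted log2 change at 3 µM was -1.85 (SE 0.243, adjusted p = 1.1e-04).
CENPK, of the same complex, had a signal of 2633, 2116, 2101 and 1513 in untreated Aska-SS, Yamato-SS, SYO-1 and Fuji, of 1486, 1583, 1716 and 502 at 0.3 µM, and of 1329.7, 905, 1224 and 358 at 3 µM. The untreated and 3 µM arrays did not overlap, and the log2 change was -1.27 (SE 0.194, adjusted p = 3.1e-04). Of the other subunits, CENPI changed by -1.68 on the log2 scale (adjusted p = 6.4e-04), while CENPH changed by -0.25 and did not pass the test (adjusted p = 0.22), with Aska-SS and Fuji lower and SYO-1 and Yamato-SS slightly higher. Differences between the subunits of a complex were not tested.

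CENPN, which recognises the CENP-A nucleosome together with CENPL, had a signal of 2508, 4734, 4718 and 2019 in untreated Aska-SS, Yamato-SS, SYO-1 and Fuji, of 1524, 4001, 3816 and 797 at 0.3 µM, and of 969.7, 2251, 2651 and 679.7 at 3 µM. It fell in every line at each step, with overlapping dose groups since the lines started from levels that differed 2.34-fold, and the log2 change at 3 µM was -1.21 (SE 0.152, adjusted p = 8.8e-05). CENPL fell by 0.51 on the log2 scale (adjusted p = 0.0066). CENPO, of the CENP-O/P/Q/U/R complex, had a signal of 952, 912, 755 and 912 in the untreated lines in the same order, of 594, 789.8, 722 and 480.0 at 0.3 µM, and of 391, 378, 461 and 225 at 3 µM. The 3 µM arrays lay below all arrays of both other doses, and the log2 change was -1.32 (SE 0.177, adjusted p = 1.3e-04), or -0.80 for the mean of its probe sets. In the same complex CENPU fell by 0.62 (adjusted p = 0.025), a call lost without Yamato-SS, and CENPQ changed by -0.41 (adjusted p = 0.053). CENP-R is encoded by ITGB3BP, which is counted below among the partner genes. It changed by 0.28 at 3 µM (adjusted p = 0.080) and was higher in 3 lines and lower in 1. Between 0.3 and 3 µM it rose by 0.42 (adjusted p = 0.035).

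CENPW and CENPX are small histone-fold proteins of the CENP-T/W/S/X complex, and CENPX also works with the Fanconi anaemia helicase FANCM. CENPW had a signal of 3669, 4031, 4088 and 2934 in untreated Aska-SS, Yamato-SS, SYO-1 and Fuji, of 2281, 3271, 3614 and 965 at 0.3 µM, and of 1438, 1753, 2275 and 992 at 3 µM. CENPX had a signal of 2422, 3901, 2895 and 2870.3 without drug, of 1838, 3093, 2170.2 and 1616 at 0.3 µM, and of 1211, 2315, 1286 and 703 at 3 µM. Neither gene's untreated arrays overlapped its 3 µM arrays. The log2 change was -1.24 for both (SE 0.183 and adjusted p = 2.4e-04 for CENPW, SE 0.159 and adjusted p = 9.8e-05 for CENPX). CENPT, the DNA-bound scaffold that carries CENPW, changed by -0.16 (adjusted p = 0.52) and was higher in SYO-1 and Fuji and lower in the other two lines.

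CENPC, which bridges the CENP-A nucleosome and the MIS12 complex, was the member that rose. Its signal was 589, 535, 725 and 738 in untreated Aska-SS, Yamato-SS, SYO-1 and Fuji, 559, 629, 698 and 866 at 0.3 µM, and 663, 690.2, 814 and 1082 at 3 µM. All 4 lines were higher at 3 µM than at 0 µM, although the dose groups overlapped, and the log2 change was 0.31 (SE 0.107, adjusted p = 0.032). Without any 1 of the lines the change stayed above 0 but no longer passed the test, with an adjusted p of 0.15 without Fuji, 0.095 without Yamato-SS, 0.058 without SYO-1 and 0.056 without Aska-SS. Of the chromatin proteins beneath the CCAN, CENPA, the histone variant itself, changed by -0.55 (adjusted p = 0.088), and CENPB, which binds a short box in alpha satellite DNA, fell by 0.44 (adjusted p = 0.040). The CENPB call was lost without Aska-SS, without Yamato-SS or without Fuji.

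In the KMN network 9 of the 10 genes fell and 1 missed the threshold, where 21.1% of all genes fell. The median log2 change of the 10 was -0.83. ZWINT, a partner of KNL1 needed for the checkpoint proteins to load, had a signal of 7086, 6629.5, 8264 and 7076 in untreated Aska-SS, Yamato-SS, SYO-1 and Fuji, of 4225, 5701, 6993 and 2632 at 0.3 µM, and of 2699.7, 2762, 4259 and 1392 at 3 µM. Untreated levels were within 1.25-fold of each other, every line fell at each step, and no 3 µM array reached the lowest untreated one. The log2 change was -1.49 (SE 0.184, adjusted p = 8.0e-05). SPC25, a subunit of the microtubule-binding NDC80 complex, had a signal of 1107, 972, 1553 and 1505 without drug, of 599, 855, 1319 and 389 at 0.3 µM, and of 379, 381, 706 and 269 at 3 µM. The untreated and 3 µM arrays were again separate, and the log2 change was -1.63 (SE 0.235, adjusted p = 2.1e-04).
The other NDC80 subunits also fell, with a log2 change of -1.05 for SPC24 (adjusted p = 0.0037), -0.74 for NDC80 (adjusted p = 0.0089) and -0.73 for NUF2 (adjusted p = 0.024). The NUF2 call was lost without Aska-SS. KNL1, the scaffold on which BUB1 docks, fell by 0.95 (adjusted p = 0.0038).
Of the MIS12 complex, the link between the CCAN and NDC80, DSN1 fell by 0.92 (adjusted p = 0.0017), MIS12 by 0.74 (adjusted p = 0.0013) and NSL1 by 0.33 (adjusted p = 0.011). The NSL1 call was lost without Yamato-SS. The 4th subunit, PMF1, was the member nearest to no change. Its signal was 1169, 1648, 1459 and 1955 in untreated Aska-SS, Yamato-SS, SYO-1 and Fuji, 1228, 1958, 1543 and 2033 at 0.3 µM, and 989, 1973, 1296 and 2367 at 3 µM. At 3 µM it was lower in Aska-SS and SYO-1 and higher in Yamato-SS and Fuji, and the log2 change was 0.03 (SE 0.109, adjusted p = 0.85), with its sign turned when Yamato-SS or Fuji was left out or the arrays were weighted.

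**Figure D2:**
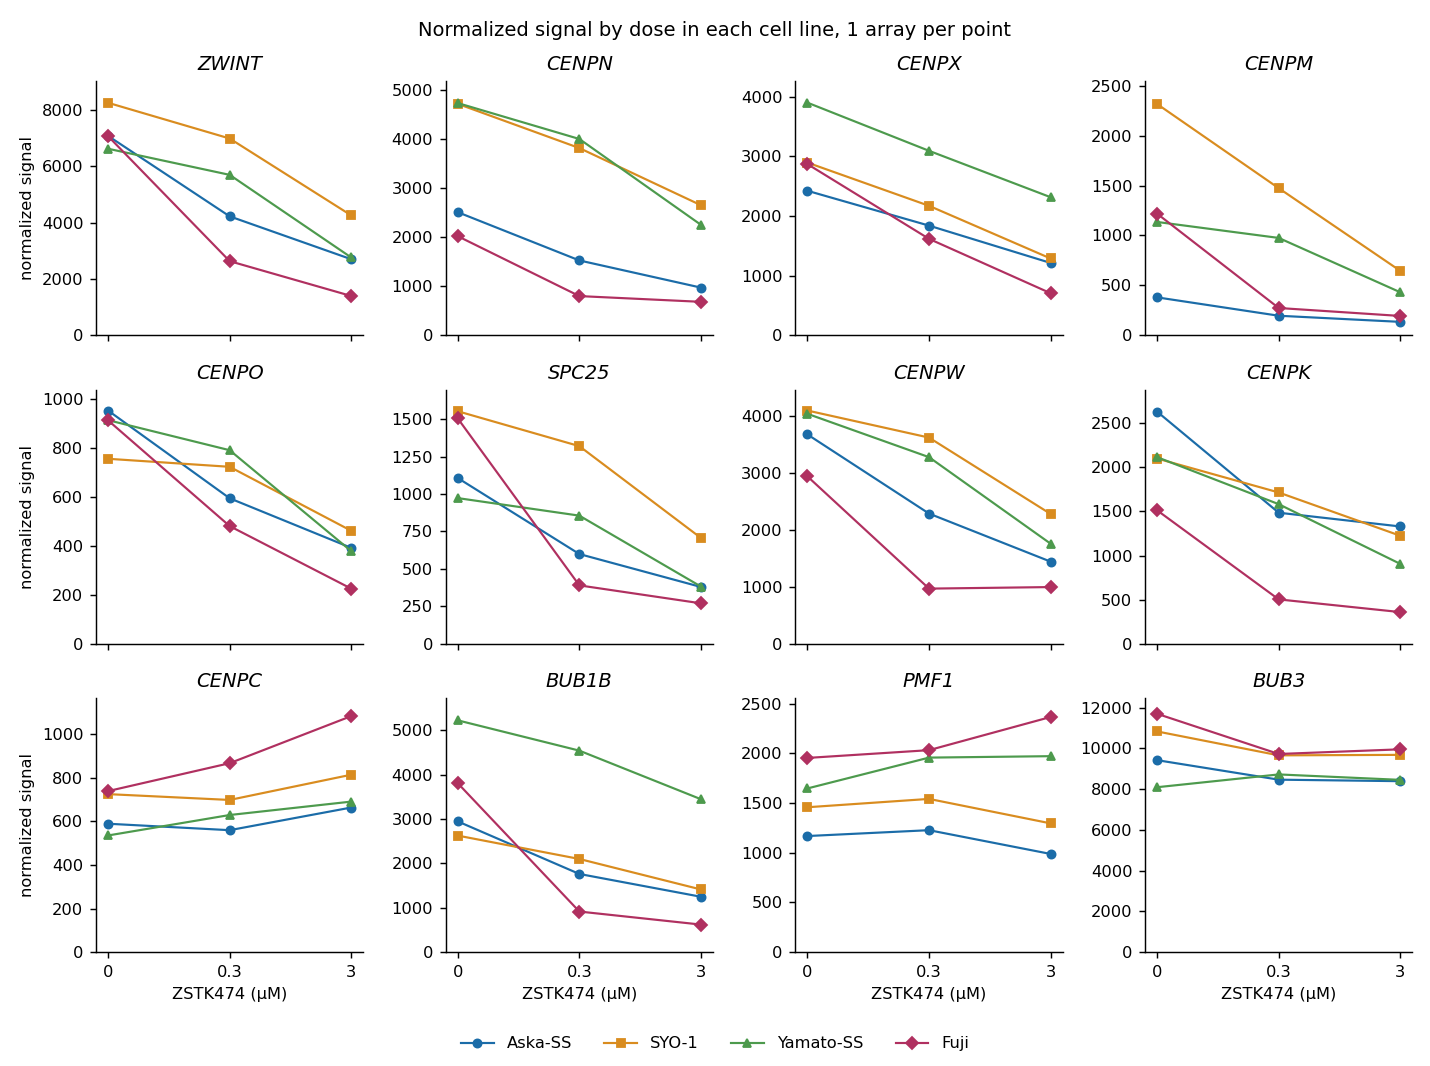
Normalized signal (y axis, from 0, a separate scale for each gene) against ZSTK474 dose (x axis, 0, 0.3 and 3 µM, evenly spaced) for 12 named members, with 1 line per cell line and 1 array per point. The 8 members with the smallest adjusted p and BUB1B end lower in all 4 lines, CENPC ends higher in all 4, and PMF1 and BUB3 have no common direction.

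All 3 genes of the SKA complex, which couples the kinetochore to shortening microtubules, fell. The log2 change was -1.36 for SKA1 (SE 0.256, adjusted p = 0.0012), -0.98 for SKA3 (SE 0.184, adjusted p = 0.0012) and -0.37 for SKA2 (SE 0.0862, adjusted p = 0.0044). The fibrous corona and motor genes had the median nearest to 0 of the role groups (-0.36). Of the 4, 1 fell (25%), which is near the 21.1% of all genes that fell. ZW10, of the complex that recruits dynein, fell by 0.29 (adjusted p = 0.046), a call lost without SYO-1, Yamato-SS or Fuji, and KNTC1, of the same complex, changed by -0.42 (adjusted p = 0.072). CENPE, the kinesin that moves chromosomes to the metaphase plate, changed by -0.56 (adjusted p = 0.052), and the large coiled-coil protein CENPF by -0.27 (adjusted p = 0.37), with Fuji at -1.18, Aska-SS at -0.20, SYO-1 at 0.01 and Yamato-SS at 0.29. CENPV, a CENP-named protein outside these complexes, fell by 0.78 (adjusted p = 4.1e-04).

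Of the 6 spindle checkpoint genes, 4 fell and 2 missed the threshold, where 21.1% of all genes fell. The median log2 change of the 6 was -0.75. BUB1B encodes BUBR1, a subunit of the mitotic checkpoint complex that inhibits the anaphase-promoting complex. Its signal was 2949, 5227, 2628 and 3810.0 in untreated Aska-SS, Yamato-SS, SYO-1 and Fuji, 1763, 4544, 2101 and 916 at 0.3 µM, and 1249, 3449, 1413 and 622 at 3 µM. Every line fell at each step, but Yamato-SS at 3 µM was still above untreated Aska-SS and SYO-1, and the log2 change was -1.34 (SE 0.264, adjusted p = 0.0016). BUB1, the kinase that docks on KNL1, fell by 1.02 (adjusted p = 0.0046), and MAD1L1, which recruits MAD2 to kinetochores, by 0.61 (adjusted p = 0.0017).
MAD2L1, which encodes MAD2 and was picked out after its values were seen, fell by 0.89 (adjusted p = 0.0027) with unlike lines. Its signal in Aska-SS was 15064, 13464 and 14509 at 0, 0.3 and 3 µM, above every other line at every dose and almost level. It went from 8102 to 6837 and 4570.2 in SYO-1, from 5538 to 4502 and 2379.6 in Yamato-SS, and from 6243 to 2780.2 and 2246 in Fuji. TTK, the kinase that starts checkpoint signalling, changed by -0.43 (adjusted p = 0.099), with Fuji at -1.30 and the other lines between -0.24 and -0.06. BUB3, a partner of BUB1 and BUBR1 that is used throughout the cell cycle, had a signal of 9424, 8096, 10834 and 11700.0 in the untreated lines in the order above, of 8467, 8724, 9660.4 and 9727 at 0.3 µM, and of 8393, 8457, 9684 and 9956 at 3 µM. Its groups overlapped, and the log2 change was -0.12 (SE 0.067, adjusted p = 0.15). BUB3 passed the test in the fit without quantile normalization (adjusted p = 0.036) and in the one without Yamato-SS (adjusted p = 0.040).

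Of the 29 members called at 3 µM, 22 passed in every alternative fit that kept cell line as a block. The other 7 were CENPB, CENPC, CENPU, NDC80, NSL1, NUF2 and ZW10. Array weights ended the calls of CENPB, CENPC, CENPU, NUF2 and ZW10, and testing without the filter on dim probe sets those of CENPB, CENPU, NDC80, NUF2 and ZW10.

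At 0.3 µM 6 of the 39 genes fell (15.4%) and 0 rose in the same limma fit, against 3.35% of all genes that fell and 4.57% that rose. At an unadjusted p under 0.05 the count was 25 of the 39, against 26.4% of all genes. The median log2 change was -0.47, or -0.23 without Fuji. The 6 genes were CENPK (-0.78, adjusted p = 0.034), CENPL (-0.55, adjusted p = 0.027), CENPM (-0.999, adjusted p = 0.032), CENPN (-0.65, adjusted p = 0.028), CENPW (-0.69, adjusted p = 0.041) and ZWINT (-0.66, adjusted p = 0.04998). Thus 5 of the 6 were CCAN genes, a group that holds 13 of the 39 members. The median log2 change was -0.49 in the CCAN, -0.51 in the KMN network, -0.58 in the SKA complex and -0.46 in the checkpoint genes. It was -0.39 in the centromeric chromatin genes and -0.33 in the corona and motor genes. The count of members called at 0.3 µM was 0 without Aska-SS, without SYO-1 or without Fuji, 2 without Yamato-SS, 0 without the filter on dim probe sets and 13 with array weights. The share of all genes called in either direction moved too, from 7.92% to 0.00824%, 2.61%, 0.668%, 2.89%, 0.501% and 16.6% in the same order.

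Between 0.3 and 3 µM 10 genes fell further (25.6%) and 0 rose, against 8.09% of all genes that fell and 7.25% that rose, and 17 of the 39 had an unadjusted p under 0.05, against 30.2% of all genes. CENPO (log2 change -0.85, adjusted p = 0.0096), CENPX (-0.74, adjusted p = 0.011) and ZWINT (-0.83, adjusted p = 0.013) had the smallest adjusted p, and CENPM, CENPN, CENPV, MAD1L1, MIS12, SKA2 and SPC25 were the others. The count was 14 without Fuji, 1 without Yamato-SS, 4 without SYO-1, 3 without Aska-SS, 2 without the filter on dim probe sets, and 17 when only the arrays of these 2 doses were fitted. The share of all genes called in either direction went from 15.3% to 11.96%, 8.87%, 4.89%, 5.84%, 5.38% and 19.97% in the same order. Among the 28 genes that fell at 3 µM, the log2 change at 0.3 µM was a median of 0.531 of that at 3 µM, from 0.0657 for SKA2 to 1.09 for CENPL. Both changes share the untreated arrays.

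The size of the 2 dose steps is described by line, with 1 array per dose and no test. In Fuji 25 of the 39 genes (64.1%) were already at a log2 change of -1 or lower at 0.3 µM, where 4.20% of all genes were. In Aska-SS, SYO-1 and Yamato-SS 0 of the 39 were that low at 0.3 µM, where 1.55%, 1.22% and 1.75% of all genes were. At 3 µM the number at -1 or lower was again 25 in Fuji (9.52% of all genes), and 9 in Aska-SS (6.25% of all genes), 6 in SYO-1 (3.49%) and 10 in Yamato-SS (5.25%).
The median log2 change from 0 to 0.3 µM was -1.31 in Fuji, -0.45 in Aska-SS, -0.13 in Yamato-SS and -0.17 in SYO-1. From 0.3 to 3 µM it was -0.13 in Fuji, -0.23 in Aska-SS, -0.45 in Yamato-SS and -0.34 in SYO-1. In Fuji 16 of the 39 genes were higher at 3 than at 0.3 µM, CENPA by the most (0.72). The median of all genes in Fuji over that step was 0.013, above 0, whereas that of the members was below 0.

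**Figure D3:**
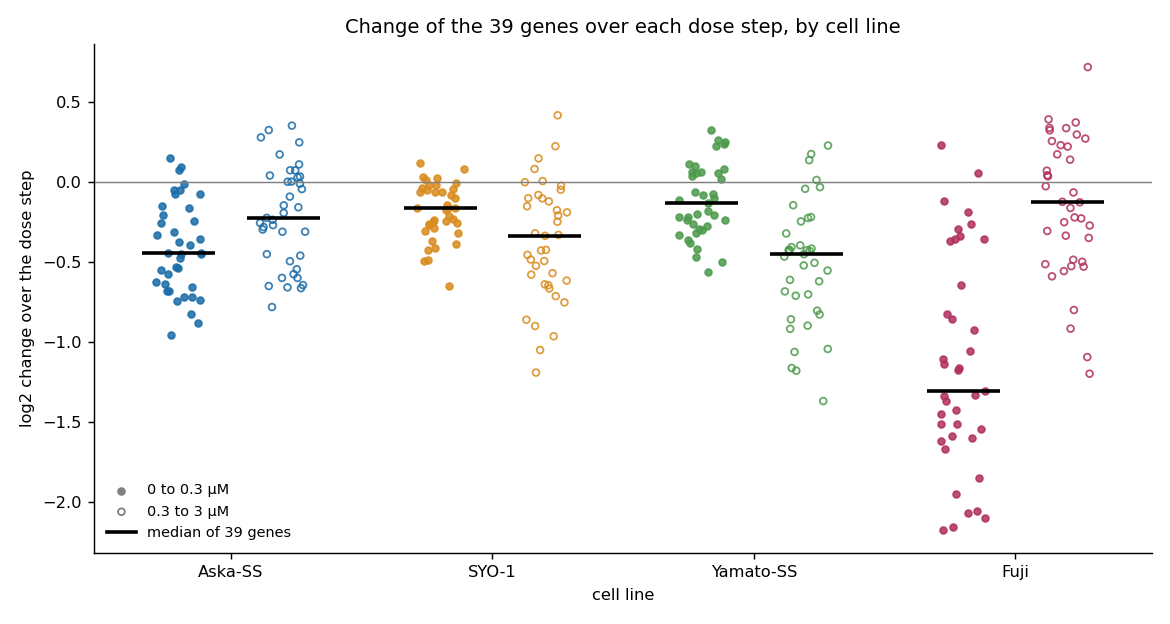
Log2 change (y axis) of each of the 39 genes from 0 to 0.3 µM (filled points) and from 0.3 to 3 µM (open points) in each cell line (x axis), with a black bar at the median. In Fuji the first step has a median of -1.31 and the second -0.13, whereas in SYO-1 and Yamato-SS the second step is the larger.

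Fuji was also the line whose RNA control moved most. The log2 ratio of the 3′ to the 5′ actin control probe set, which rises as RNA is degraded or copied less fully, was 0.177, 0.381 and 0.726 in Fuji at 0, 0.3 and 3 µM, and between 0.0362 and 0.230 on the arrays of the other lines. The same ratio for GAPDH lay between -0.143 and 0.0989 on all arrays. The part of RNA quality in the values of Fuji was not tested. Without Fuji, 27 of the 39 genes still passed the test at 3 µM, 26 of them among the 29 called with all lines, and the median log2 change was -0.57. Of all genes, 35.9% passed in either direction in that fit.

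A straight line was fitted over the dose steps in each cell line. Its slope was lowest in Fuji for 31 of the 39 genes (79.5%), in Aska-SS for 4, and in SYO-1 and Yamato-SS for 2 each. Fuji had the lowest slope for 27.8% of all genes. The lowest slope is not always a fall, since all 4 slopes of CENPC were above 0. The test that the 4 slopes of a gene are equal (limma moderated F) called 0 of the 39 genes after adjustment, against 0.585% of all genes. At an unadjusted p under 0.05 it called 11 (28.2%), against 19.4% of all genes. CENPX (adjusted p = 0.087) and BUB1B (adjusted p = 0.12) came nearest. A bend such as that of Fuji enters the error of this test.

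Other probe sets of the members gave a partial check. Of the 13 genes with several probe sets above the filter, 11 had the same sign in all of them and 8 the same call. For CENPO a second probe set changed by -0.28 and did not pass (adjusted p = 0.27), and the mean of its probe sets changed by -0.80 (adjusted p = 0.0016). For CENPF a second probe set changed by -0.56 and passed (adjusted p = 0.039). The 6 probe sets of BUB3 ran from -0.85 to 0.18, and 1 of them passed (-0.37, adjusted p = 0.013). For NSL1, 1 probe set stood at 0.02 (adjusted p = 0.95) and the others fell. For CENPU, 1 of 3 did not pass (-0.49, adjusted p = 0.16).

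Genes of proteins that load or regulate the kinetochore fell for the most part. Of 20 partner genes 19 were tested, and at 3 µM 15 fell (78.9%), 0 rose and 4 did not pass. The median log2 change of the 19 was -0.90. Of all genes, 21.1% fell and 22.6% rose. TRIP13, the ATPase that remodels MAD2, changed by -1.69 (SE 0.181, adjusted p = 3.2e-05), from -2.53 in Fuji to -1.21 in SYO-1. SPDL1, the dynein adaptor at the corona, changed by -1.05 (SE 0.171, adjusted p = 4.6e-04), and ZWILCH, which binds ZW10 and KNTC1, by -0.64 (SE 0.11, adjusted p = 6.4e-04). CDC20, which the checkpoint keeps from switching on the anaphase-promoting complex, changed by -1.27 (SE 0.257, adjusted p = 0.0018).

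Beside these, 30 DNA replication genes were tested, among them the MCM and GINS helicase subunits and PCNA. At 3 µM 25 of them fell (83.3%) and 1 rose, with a median log2 change of -1.01. At 0.3 µM 11 of the 30 replication genes fell (36.7%), and between 0.3 and 3 µM 17 fell (56.7%). Of all genes, 21.1% fell at 3 µM, 3.35% at 0.3 µM and 8.09% between 0.3 and 3 µM. In Fuji the second dose step had a median of -0.59 for the replication genes and -0.13 for the 39 members, and the first step -0.95 and -1.31. Whether the replication genes and the members differ was not tested.

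**Figure D4:**
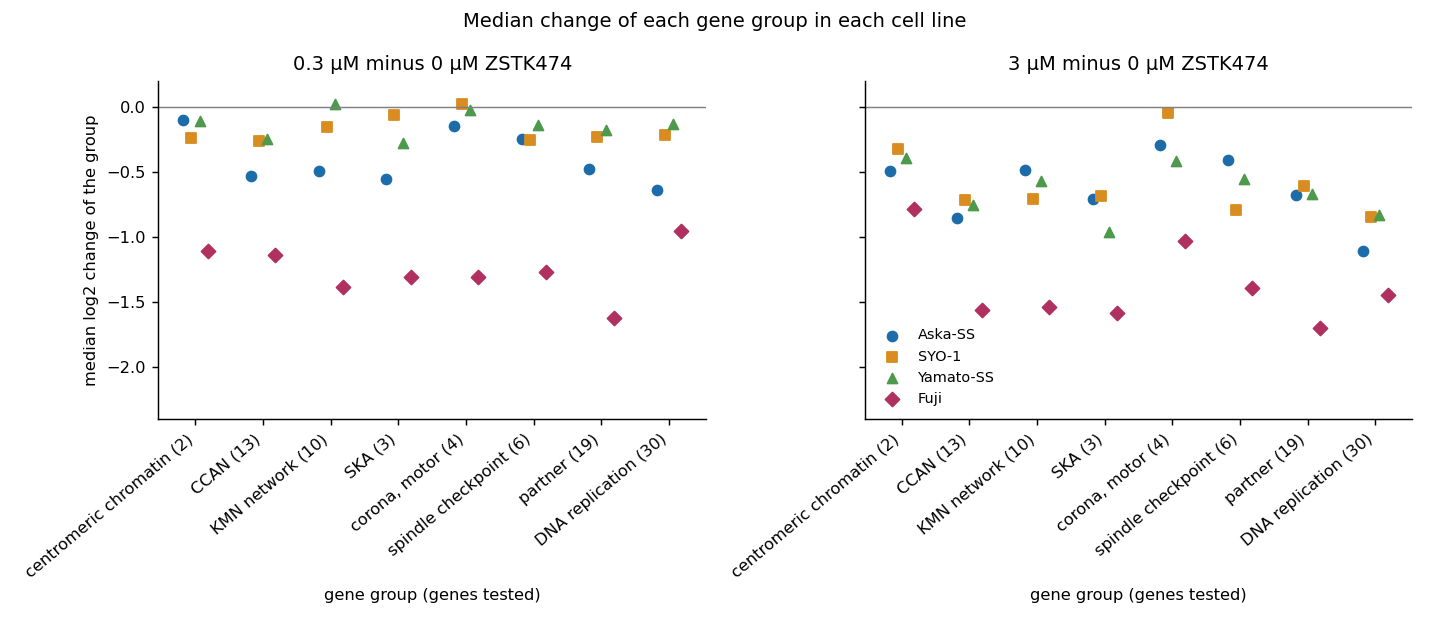
Median log2 change of each role group, of the partner genes and of the DNA replication genes (x axis, number of genes tested in brackets) at 0.3 µM (left) and 3 µM (right) against 0 µM, with 1 point per cell line (4 lines). Fuji lies lowest in each group plotted at both doses, and CENPV, a role group of 1 gene, is not plotted. The 3 other lines lie between -0.64 and 0.03 at 0.3 µM, and at 3 µM the corona and motor genes are the nearest to 0 in SYO-1 (-0.04).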

How the data were processed

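Total RNA was hybridised to GeneChip Human Genome U133 Plus 2.0 arrays, 12 in all. Per the labels the authors made the deposited intensity values with MAS5 (version not given in the sources used here), and their methods name quantile normalization. The deposited columns had equal trimmed means but unequal medians (60.1 to 85.3), so they were quantile normalized here. They were then floored at the 20th percentile (a signal of 12.1) and taken to log2. The 62 control probe sets and probe sets with a mean at or under the median were left out, and the brightest probe set with 1 symbol stood for each gene. Of 54675 probe sets, 41097 had 1 symbol, 1801 several and 11777 none. Doses were compared with limma 3.58.1 in R 4.3.3 (cell line as a block, trended eBayes) over 12132 genes, with Benjamini-Hochberg adjustment and a threshold of 0.05. The number of arrays limits the precision, which in these dose comparisons comes from how far the 4 lines differ in their change by dose.

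The lines pair the arrays across doses. After dose means were removed, arrays of the same line correlated at 0.828 to 0.931 and arrays of different lines and doses at -0.430 to -0.0892. Removing the dose means by itself pushes the correlations between lines below 0. Values on every array are given for the 8 members with the smallest adjusted p at 3 µM, those that rose, the 2 with the smallest p for unequal slopes and the 2 nearest to no change. The fitted change is given for 4 partner genes and for ITGB3BP. The members and the gene lists were chosen with earlier results of these data known. The fits were checked on simulated data. Other normalizations, floors, filters, probe set rules, weights, blocks and left-out lines were tried as alternatives.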

Additional observations from a re-analysis of the deposited data

Results flagged for a closer look

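Over 36 sets of 4 line values (12 named genes and the role groups, each at 2 doses), 6 had 1 line standing apart from the other lines by Dixon's criterion. The criterion flags about 1 in 20 independent sets by chance. That rate does not hold here, because CENPX and BUB1B were named for unequal slopes and the sets are not independent. In Fuji at 0.3 µM the log2 change of CENPX was -0.83, against -0.42 to -0.33 in the other lines. The median of the 2 centromeric chromatin genes in Fuji at 0.3 µM was -1.11, against -0.24 to -0.10. In Fuji CENPA stood at -1.85 and CENPB at -0.36, and CENPB was lower in Yamato-SS (-0.47), so the flag rests on CENPA. The corona and motor genes had a median of -1.31 in Fuji at 0.3 µM, against -0.15 to 0.03, and the spindle checkpoint genes -1.27, against -0.25 to -0.14. At 3 µM the median of the CCAN genes was -1.56 in Fuji, against -0.86 to -0.71. PMF1 was 0.25 in Yamato-SS at 0.3 µM, against 0.06 to 0.08 in the other lines. These values rest on 1 array per line and dose and the sets share genes and arrays.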

How the results depend on the processing

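At 3 against 0 µM the 29 calls became 24 to 31 under all alternatives but one, and 25 to 27 without 1 line. The share of all genes called was 43.7%, then 24.0% to 52.4%, and 35.1% to 40.3% without 1 line. Without the replicate block (cell line not in the model) 4, 0 and 0 members passed at 3 against 0, 0.3 against 0 and 3 against 0.3 µM. Of all genes, 3.16%, 0% and 0% then passed, since the lines' own levels enter the error. At 0.3 against 0 µM the 6 calls became 0 without the filter on dim probe sets, 13 with array weights and 0 to 2 without 1 line. At 3 against 0.3 µM the 10 calls became 2 without that filter, 17 when only those 2 doses were fitted and 1 to 14 without 1 line. The cause of these moves was not tested, and the shares of all genes in the same fits are given with each dose above. The count of members with unequal slopes was 0 in every alternative run, and that test was not run without the block or on 2 doses. Of 156 alternative values of single genes, 138 kept their direction and call, 13 no longer passed, 2 newly passed and 3 turned sign, all of PMF1 (log2 change -0.0080 with array weights, -0.045 without Yamato-SS and -0.051 without Fuji, within a range of -0.051 to 0.12 without 1 line). CENPC also lost its call with array weights (adjusted p = 0.11) and when only 2 doses were fitted (adjusted p = 0.11). Without quantile normalization the median of all genes at 3 µM was 0.09. MAS5 signals near the floor are uncertain, and all members were above the floor on every array.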
